A study of Mus musculus with 375 samples.

Results

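Single cardiomyocytes were compared by the share of their RNA that came from mitochondrial DNA. The mitochondrial share of a cell was the sum of its read counts in the 13 protein-coding genes of mitochondrial DNA, marked by mt-Co1 and mt-Nd1, over its counts in all genes. Within each numbered cell set, the cells were ordered by this share and split into 3 bins of nearly equal size. The top bin (high-share cells, 100 cells in all) was set against the bottom bin (low-share cells, 100 cells), and 109 cells lay in the middle bin. These 309 kept cells came from 5 sets, out of 375 cells in the series. Of the 344 cells of these sets, 34 had fewer than 3000 genes with a read, and 1 had counts identical to those of a cell of another set.

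All cells were rod-shaped cardiomyocytes picked by pipette from the left ventricle of mice 2 weeks after TAC. In TAC the aorta is constricted surgically and the left ventricle works against a raised pressure. CD8-depleted mice (sets 1 and 2) received an antibody against CD8, CD3e-/- mice (set 2) lack CD3e and with it T cells, and wild-type (WT) mice (sets 1 and 2) had neither change. Per the study's methods, all mice were males 8 weeks of age. Cells of each condition came from a pair of mice per the study's methods, but the labels tie no set number to a mouse, so p-values measure only the spread between sets. Few cells of CD3e-/- set 1 were kept, and they entered only as an alternative.

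A mitochondrion carries its own small circular genome in many copies, which encodes 13 core proteins of the respiratory chain and of ATP synthase. All other proteins of the organelle are encoded in the nucleus, made in the cytosol and imported. Cardiomyocytes are among the cells richest in mitochondria, and both genomes supply subunits of complexes I, III and IV and of ATP synthase. In single-cell work a high mitochondrial share is also widely used as a sign of a damaged cell.

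The share and its parts chose the cells and are described without a test. The median share was 96.1%, 94.7%, 96.8%, 89.4% and 90.1% in the high-share cells of CD8-depleted 1, CD8-depleted 2, CD3e-/- 2, WT 1 and WT 2. In the low-share cells of the same sets it was 88.9%, 86.3%, 84.8%, 67.9% and 77.2%. Where 5 values are listed they are of the sets in this sequence. The low-share cells of both WT sets reached further down than those of the other sets, to 57.2% in WT 1 and 39.7% in WT 2. The lowest value of WT 2 is that of 1 cell, in which satellite repeat predicted genes made up more than 20% of nuclear counts, and the next cell of WT 2 had 59.5%. With that cell left out, 129 nuclear genes were called between high-share and low-share cells, 27 higher and 102 lower, against 106 with it. At the borders the bins touched: the lowest high-share cell exceeded the highest middle cell by 0.00868 to 0.244 percentage points. mt-Co1, a core subunit of complex IV (chrM:5328-6872, mm10), took 32.03%, 28.1%, 25.7%, 20.4% and 27.4% of all counts in high-share cells, against 30.8%, 24.3%, 22.7%, 14.8% and 23.3% in low-share cells. mt-Nd1, a core subunit of complex I (chrM:2751-3707), took 15.6%, 15.7%, 18.8%, 15.98% and 15.8% in high-share cells, against 13.7%, 14.2%, 16.4%, 12.4% and 12.9% in low-share cells. In every set both marker genes took a larger share of all counts in the cells picked for it.

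**Figure D1:**
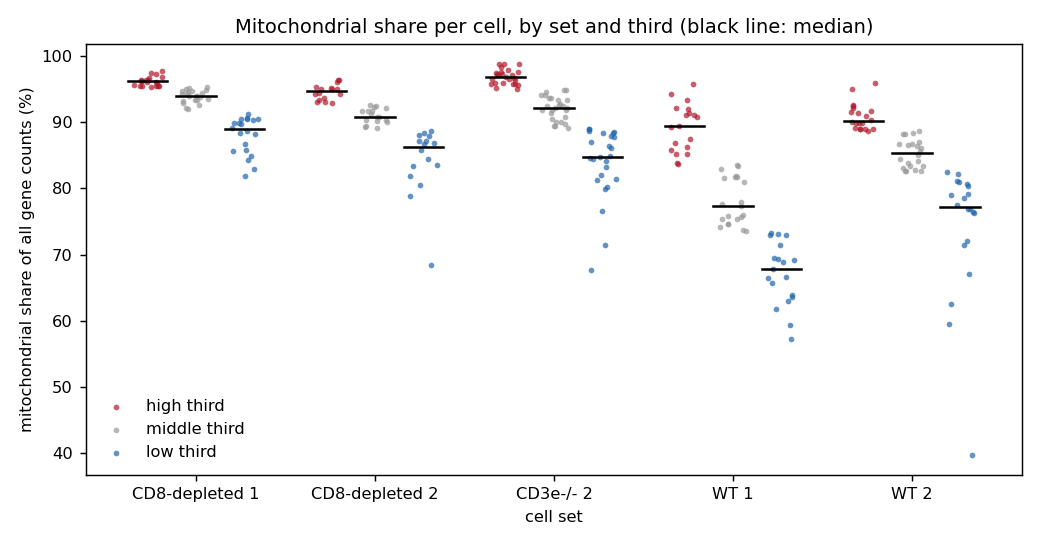
Each point is 1 kept cell, placed by the percentage of its gene counts that came from mitochondrial DNA (vertical axis) within its set (horizontal axis) and coloured by bin, with a black line at the median. The high-share cells of the WT sets, with medians of 89.4% and 90.1%, lay near the low-share cells of CD8-depleted set 1, with a median of 88.9%.

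High-share and low-share cells differed less in mitochondrial than in nuclear counts, with CD8-depleted set 2 closest to a balance of both. Median mitochondrial counts per cell were 1.01, 1.47, 1.04, 1.09 and 1.02 times as high in high-share as in low-share cells. Median nuclear counts were 61478, 69825, 93722, 168010 and 150196 per high-share cell, against 174428, 145141, 481022, 576468 and 544128 per low-share cell. Low-share cells thus had 2.84, 2.08, 5.13, 3.43 and 3.62 times as many nuclear counts as high-share cells. In these counts, fewer nuclear transcripts per cell and a poorer capture of the cell's RNA cannot be told apart. Across the cells of a set, the rank correlation of the share with nuclear counts was -0.68 to -0.94 (49 to 77 cells), and with mitochondrial counts 0.04 to 0.47. Both counts are parts of the share itself, so these correlations are descriptions. Detected genes followed the nuclear depth, with medians of 3647 to 4934 genes per high-share cell, against 4798 to 6719 per low-share cell. When every cell was thinned at random to 20000 nuclear counts, the median number of genes in high-share cells minus that in low-share cells was -76, 61, -225, -448 and -22.

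**Figure D2:**
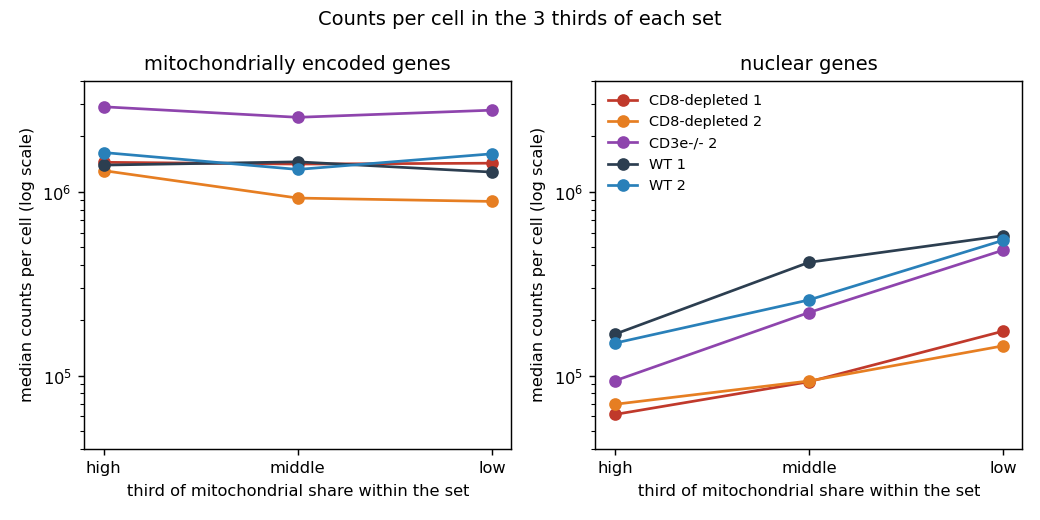
Points are median counts per cell on a log scale for the 13 mitochondrial genes (left) and for all nuclear genes (right) in the high, middle and low bin of each set, with 1 line per set. Between the high and low bins mitochondrial counts were nearly level except in CD8-depleted set 2, while nuclear counts were 2.08 to 5.13 times lower in high-share cells. The middle bin of WT 2 lay lower in mitochondrial counts, at 1322035 against 1633915 (high) and 1607536 (low). So did that of CD3e-/- 2, at 2539392 against 2897172 and 2776727.

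The make-up of the mitochondrial RNA itself was not used to form the bins. For the most counted genes it was nearly the same in both kinds of cell. mt-Cytb, the cytochrome b of complex III (chrM:14145-15288), made up 28.3%, 25.3%, 36.3%, 36.7% and 31.1% of mitochondrial counts in high-share cells, against 28.1%, 24.8%, 35.0%, 39.3% and 30.5% in low-share cells. mt-Co1 made up 22.7% to 33.3% in high-share cells and 22.2% to 35.1% in low-share cells, and mt-Nd1 16.2% to 19.4% and 15.6% to 19.8%. For these 3 genes the sets differed more from each other than high-share and low-share cells of 1 set did. mt-Nd4, another subunit of complex I, came closest to a shift, with a mean log2 ratio of 0.06 ± 0.06 (SD, n = 5 sets), higher in high-share cells of 4 of 5 sets (exact two-sided sign-flip permutation test, p = 0.125, adjusted p = 0.938 over 13 genes). None of the 13 genes moved the same way in all 5 sets, and all 13 adjusted p-values in this exact test were 0.938. With 5 sets this test cannot give a p below 0.0625, so it could not have passed at 0.05.

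**Figure D3:**
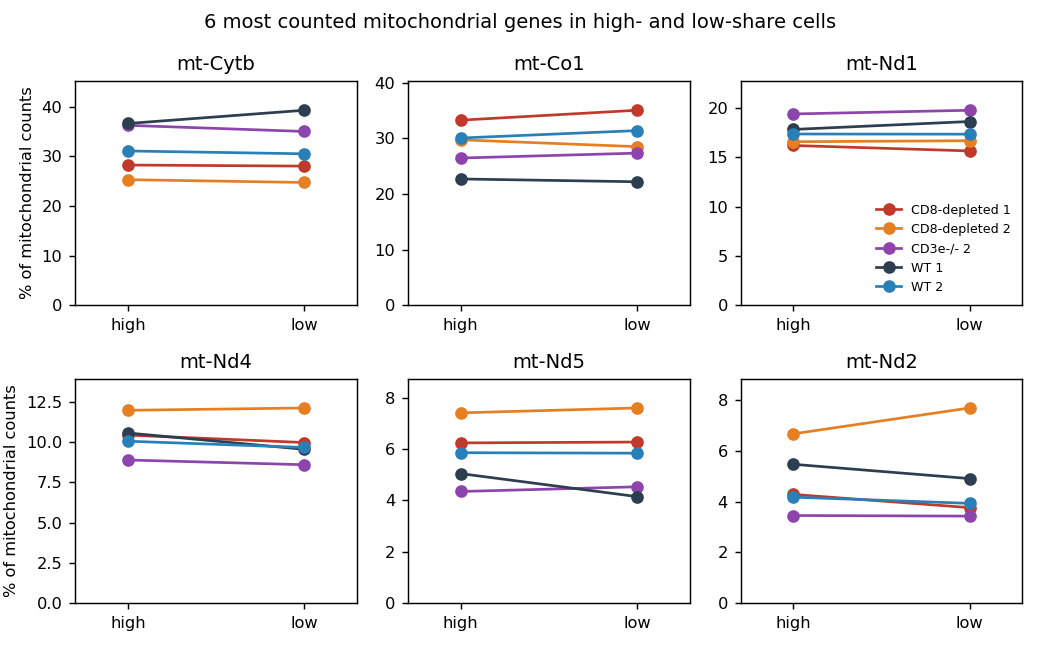
Each panel shows 1 of the 6 most counted mitochondrial genes as a percentage of mitochondrial counts (vertical axis from 0) in the high-share and low-share cells of each set, with 1 line per set. The lines are close to flat and stay in nearly the same rank, mt-Cytb spanning 25.3% to 36.7% in high-share and 24.8% to 39.3% in low-share cells.

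Several mitochondrial genes could hardly be counted at all, which bears on what the share holds. mt-Co2, mt-Atp8, mt-Atp6, mt-Co3, mt-Nd3 and mt-Nd4l each took 0.00469% to 0.345% of mitochondrial counts. The mouse nuclear genome holds a long copy of mitochondrial DNA on chromosome 1. Reads were 51 bases long, and of all 51-base windows in these 6 genes 99.0% to 100% occur letter for letter on chromosome 1 of build NCBIM37. No window of mt-Nd1, mt-Nd6 or mt-Cytb has a copy on any nuclear chromosome, and 50.6% of those of mt-Co1 and 62.2% of those of mt-Nd4 do. The window that opens mt-Co2 is shown as an example of such a shared run (chrM:7013-7063, plus strand; identical to chr1:24622354-24622404, minus strand, NCBIM37).
mt-Co2 window: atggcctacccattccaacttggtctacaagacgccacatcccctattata
Whether reads that fit both places were dropped in counting was not tested. A mitochondrial share from these counts rests mainly on mt-Cytb, mt-Co1, mt-Nd1 and mt-Nd4.

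Nuclear genes were then compared between high-share and low-share cells. For each set, the nuclear counts of a bin's cells were added up, and levels are CPM, the count a gene would have in 1000000 nuclear counts, so that the amount of mitochondrial RNA does not enter them. The 10 sums held 1127535 to 3154236 nuclear counts for high-share cells and 2459698 to 15318313 for low-share cells. Fold changes come from edgeR's quasi-likelihood test with the set as a block, and a gene was called at a Benjamini-Hochberg adjusted p under 0.05 over all 10445 nuclear genes tested. Of these, 106 genes (1.01%) were called, 88 lower (0.843%) and 18 higher (0.172%) in high-share cells. Of the 88, 85 were lower in high-share cells of all 5 sets, which held for 402 of all genes tested (3.85%). The 88 lower genes were mostly abundant, with a median of 1025 CPM against 16.97 CPM over all genes tested. Of them, 53 were in at least 1 of 10 lists of mitochondrial function, which held 300 of the genes tested, and 32 coded for the respiratory chain or ATP synthase. None of the 18 higher genes was in these 10 lists, which do not hold Lars2, a mitochondrial tRNA synthetase among the 18. Without TMM factors, with CPM of the sums alone, the median of all genes shifted to 0.21 and 62 genes were called, 27 lower and 35 higher, so changes below are best read against the median of all genes. The lists were chosen with earlier results of these data known, so these counts are descriptions.

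Nuclear-encoded subunits of the respiratory chain were lower in cells with a high mitochondrial share. All 37 complex I genes tested had a fitted change below 0, with a median log2 change of -0.62, and 15 of them were called lower. Ndufv2, a flavoprotein subunit of complex I (chr17:66078638-66101559), had 1565, 1548, 1122, 1733 and 1314 CPM in high-share cells, against 2441, 2038, 2835, 3205 and 2500 CPM in low-share cells. High-share and low-share values did not overlap, which held for 150 of the genes tested (1.44%), and the middle bin lay between them in all 5 sets. The log2 change of Ndufv2 was -1.06 ± 0.16 (SE, edgeR adjusted p = 0.00943). Ndufb8 and Ndufs7 fell (log2 changes of -0.80 and -0.88, adjusted p = 0.0132 and 0.0163). Ndufa4, held in this list and its counts although its protein is now assigned to complex IV, fell (log2 change -0.92, adjusted p = 0.0112). Over all genes tested the median log2 change was -0.01, and 5269 of 10445 lay below 0. Without TMM factors the complex I median was -0.39, against the 0.21 of all genes.

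Complexes III and IV and ATP synthase changed in the same direction. Of 24 genes of complexes III and IV, 23 had a fitted change below 0 (median -0.58) and 9 were called lower. Uqcrc2, a core protein of complex III, had 618, 500, 502, 644 and 578 CPM in high-share cells, against 1364, 520, 1639, 1292 and 1889 CPM in low-share cells. In CD8-depleted set 2 the 2 values were nearly equal, and in the other 4 sets the high-share cells were clearly lower (log2 change -1.35 ± 0.22, adjusted p = 0.00973). Cox5a, a subunit of complex IV, averaged 1508 ± 418 CPM in high-share cells and 2408 ± 524 CPM in low-share cells (SD, n = 5 sets). Cyc1, cytochrome c1 of complex III, averaged 803 ± 121 and 1260 ± 121 CPM, and the 5 high-share values did not overlap the 5 low-share values. Cox5a and Cyc1 fell in edgeR (log2 changes of -0.92 and -0.88, adjusted p = 0.0108 and 0.0160), as did Uqcrc1, another complex III core protein (log2 change -0.82, adjusted p = 0.0212). Cycs, the cytochrome c that carries electrons between complexes III and IV, fell (log2 change -0.72, adjusted p = 0.0285).

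All 18 ATP synthase genes tested had a fitted change below 0 (median -0.64), and 8 were called lower. In CPM without TMM factors, 9 of the 18 were lower and 1 was higher in high-share cells of all 5 sets. Atp5b, the catalytic beta subunit, had 4879, 3174, 2634, 5201 and 4120 CPM in high-share cells, against 7436, 5390, 6266, 5580 and 8790 CPM in low-share cells. The highest high-share value, in WT set 1, lay just below the lowest low-share value, in CD8-depleted set 2. The log2 change of Atp5b was -0.99 ± 0.18 (adjusted p = 0.0160), and Atp5c1, the gamma subunit of the rotor, fell (log2 change -1.01, adjusted p = 0.00963). Atp5g1, of the membrane ring, and Atp5pb, of the stalk, fell (log2 changes of -0.79 and -0.84, adjusted p = 0.00973 and 0.0184).

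**Figure D4:**
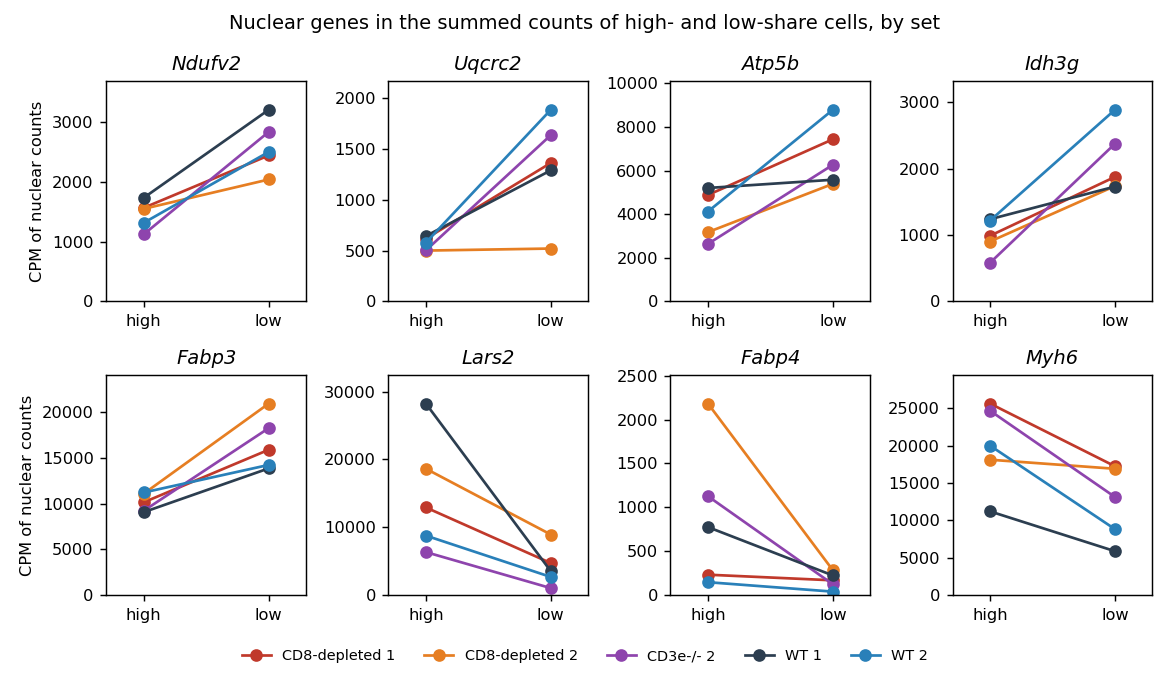
Each panel shows 1 nuclear gene in CPM of nuclear counts (linear axis from 0) in the summed high-share and low-share cells, with 1 line per set. Ndufv2, Uqcrc2, Atp5b, Idh3g and Fabp3 were lower in high-share cells of all 5 sets, Lars2 and Fabp4 were higher in all 5, and Myh6, also higher in all 5, did not pass (adjusted p = 0.164).

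Enzymes that feed the chain followed. Of 29 genes of the tricarboxylic acid cycle and pyruvate entry, 27 had a fitted change below 0 (median -0.65) and 7 were called lower. Idh3g, a regulatory subunit of isocitrate dehydrogenase (chrX:73778963-73786897), had 989, 902, 581, 1238 and 1217 CPM in high-share cells, against 1877, 1738, 2377, 1730 and 2889 CPM in low-share cells. No high-share value of Idh3g reached the lowest low-share value (log2 change -1.35 ± 0.20, adjusted p = 0.00963). The malate dehydrogenases Mdh1 (cytosol) and Mdh2 (mitochondria) and Sdhb, the iron-sulfur subunit of complex II, fell (log2 changes of -1.13, -1.08 and -0.82, adjusted p = 0.0108, 0.00973 and 0.00973). Of 27 genes of fatty acid oxidation, 23 lay below 0 (median -0.65) and 5 were called lower. On a log2(CPM + 1) scale without TMM factors the per-set medians were -0.30, 0.0019, -0.55, -0.09 and -0.38. In CPM, 8 of the 27 were lower and 3 higher in high-share cells of all 5 sets. Fabp3, the heart's fatty acid carrier, had 10161, 11106, 9237, 9084 and 11234 CPM in high-share cells, against 15913, 20968, 18280, 13873 and 14252 CPM in low-share cells. High-share and low-share values of Fabp3 did not overlap (log2 change -0.93 ± 0.13, adjusted p = 0.00943). The beta-oxidation enzymes Ech1, Eci1 and Hadhb fell (log2 changes of -1.08, -0.69 and -0.74, adjusted p = 0.0108, 0.0409 and 0.0447). Of 19 glycolysis genes, 16 lay below 0 (median -0.51) and 2 were called lower, the lactate dehydrogenase Ldhb (log2 change -1.10, adjusted p = 0.00973) and the aldolase Aldoa (log2 change -0.85, adjusted p = 0.0108).

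Genes of energy transfer and of the organelle's own upkeep were also called lower. Of 14 genes that shuttle high-energy phosphate, 3 were called lower. Ckmt2, the mitochondrial creatine kinase of muscle, had 2353, 1416, 1496, 2165 and 2464 CPM in high-share cells, against 4274, 1992, 2628, 3784 and 5771 CPM in low-share cells (log2 change -1.07 ± 0.15, adjusted p = 0.00943). Ckmt2 was lower in high-share cells of each set, although the ranges overlapped across sets. Slc25a5, an exchanger of ADP and ATP across the inner membrane, fell (log2 change -1.20, adjusted p = 0.00943) as did the phosphate carrier Slc25a3 (log2 change -0.81, adjusted p = 0.0294). Of 77 mitochondrial ribosomal protein genes, which serve the translation of the mitochondrial transcripts themselves, 70 lay below 0 (median -0.46) and 5 were called lower. Mrps22, with 13.3 to 34.8 CPM in high-share cells and 38.7 to 73.96 CPM in low-share cells, fell (log2 change -1.79, adjusted p = 0.0499). Mrps28, Mrpl35 and Mrpl46 fell (log2 changes of -1.19, -0.995 and -1.12, adjusted p = 0.0285, 0.0395 and 0.0442).

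In the lists of mitochondrial DNA maintenance, RNA processing, translation factors and import, no gene was called higher in high-share cells. Lars2, the leucyl-tRNA synthetase of mitochondria described below, is in none of these lists and was called higher. Of 20 genes of mitochondrial DNA maintenance and transcription, 15 lay below 0 (median -0.47) and none was called. Lonp1, the matrix protease, averaged 148 ± 45.5 CPM in high-share cells and 193 ± 32.9 CPM in low-share cells (adjusted p = 0.191). Mterf2, a transcription termination family member, averaged 11.8 ± 8.65 and 30.4 ± 17.3 CPM (adjusted p = 0.233). Of 23 genes of mitochondrial RNA processing, 2 were called lower, Hsd17b10 of the mitochondrial RNase P and the translation activator Ptcd3 (log2 changes of -0.998 and -1.13, adjusted p = 0.0184 and 0.0393). None of 13 mitochondrial translation factors was called, and Tufm, the elongation factor, averaged 157 ± 57.9 CPM in high-share cells and 228 ± 62.4 CPM in low-share cells (adjusted p = 0.0713). The import and protease genes Pmpcb, Grpel1 and Clpp fell (log2 changes of -1.24, -0.91 and -1.05, adjusted p = 0.0228, 0.0468 and 0.0179). Pmpcb and Grpel1 were the 2 called of 32 import genes, of which 29 lay below 0 (median -0.29).

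Among 22 regulators of energy genes none was called (median -0.16). Ppargc1a, the coactivator PGC-1alpha that drives mitochondrial biogenesis, averaged 159 ± 40.9 CPM in high-share cells and 160 ± 33.3 CPM in low-share cells (SD, n = 5 sets; log2 change -0.24 ± 0.20, adjusted p = 0.779). The fatty acid receptor Ppara averaged 35.1 ± 14.9 and 41.96 ± 9.95 CPM, and the mitochondrial deacetylase Sirt3 15.1 ± 12.3 and 31.8 ± 12.9 CPM (adjusted p = 0.609 and 0.324). For these genes a change could not be told from the spread between sets.

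Short sequences known to be bound by regulators of energy genes were counted in the RefSeq promoter windows of build GRCm38.p6, from 250 bases before to 50 after a gene's start. Of the 88 genes called lower, 75 had a window. The core AAGATGGCG of YY1, searched on both strands, was in 10 of these 75 genes (13.3%), in 4.02% of the 8373 tested genes with a window and in 1.64% of all 27025 genes with a window. Among the 66 tested genes of the respiratory chain and ATP synthase with a window, called or not, it was in 7 (10.6%). The palindromic core of NRF1 was in 3 of the 75, against 2.47% of tested genes with a window, 1.07% of all genes with a window and 5 of the 66 (7.58%). TCAAGGTCA of the ERR receptors was in none of the 75, against 0.299% of tested genes, and ACCGGAAGT of ETS factors in 2 (2.67%), against 2.71%. The ERR and ETS runs were each in 1 of the 66 (1.52%). None of the 4 runs contains another. The windows of Idh3g and Ndufs7 are shown because both genes were called lower and both hold the YY1 letters, in capitals, at 130 bases before and 24 bases after the start.
Idh3g promoter (chrX:73786848-73787147, minus strand): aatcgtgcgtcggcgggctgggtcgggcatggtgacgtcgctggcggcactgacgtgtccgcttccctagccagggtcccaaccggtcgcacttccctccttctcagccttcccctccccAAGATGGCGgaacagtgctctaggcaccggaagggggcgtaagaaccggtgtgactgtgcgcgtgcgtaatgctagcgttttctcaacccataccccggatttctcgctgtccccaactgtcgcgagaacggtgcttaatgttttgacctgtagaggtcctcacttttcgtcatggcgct
Ndufs7 promoter (chr10:80249199-80249498, plus strand): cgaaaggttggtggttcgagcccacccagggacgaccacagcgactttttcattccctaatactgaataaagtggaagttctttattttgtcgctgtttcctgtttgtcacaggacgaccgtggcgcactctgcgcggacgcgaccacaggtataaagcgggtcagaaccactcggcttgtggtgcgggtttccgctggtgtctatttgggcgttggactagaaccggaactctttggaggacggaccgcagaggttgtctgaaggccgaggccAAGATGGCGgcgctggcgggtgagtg
A match is a run of letters and not evidence of binding.

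Contractile genes were split. Of 30 sarcomere genes, 19 lay below 0, the median was -0.06, and 5 were called lower. Csrp3, the muscle LIM protein of the Z disc, had 5112, 4291, 4033, 4786 and 5888 CPM in high-share cells, against 7357, 5917, 8622, 7641 and 8157 CPM in low-share cells. These ranges were narrow and just missed each other (log2 change -0.87 ± 0.13, adjusted p = 0.00973). The actins Acta1 (skeletal) and Actc1 (cardiac) and the calcium sensor Tnnc1 fell (log2 changes of -1.06, -0.72 and -0.59, adjusted p = 0.0184, 0.0437 and 0.0457). The small heat shock proteins Cryab and Hspb1 fell (log2 changes of -0.73 and -0.72, adjusted p = 0.0269 and 0.0393). Myh6, the main adult myosin heavy chain, went the other way in the means, with 25638, 18122, 24682, 11208 and 20010 CPM in high-share cells, against 17245, 16909, 13131, 5877 and 8827 CPM in low-share cells. High-share values of Myh6 were above low-share values within each of the 5 sets, and the change did not pass (log2 0.52 ± 0.16, adjusted p = 0.164).

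Genes of protein breakdown and single metabolic enzymes were also called lower. The proteasome subunits Psmb7, Psma2 and Psmb6 fell (log2 changes of -1.53, -1.17 and -0.85, adjusted p = 0.00973, 0.0112 and 0.0184). Psmb7 had 101, 77.2, 60.3, 107 and 158 CPM in high-share cells, against 229, 132, 328, 292 and 261 CPM in low-share cells. Iars, the cytosolic isoleucyl-tRNA synthetase, had 19.5 to 32.2 CPM in high-share cells and 57.7 to 88.0 CPM in low-share cells (log2 change -1.72 ± 0.30, adjusted p = 0.0119). Iah1, Acy3, Coq3 (ubiquinone synthesis), Pgm1, Ubl7 and Apool (an inner membrane cristae protein) fell (log2 changes of -2.36, -1.62, -1.495, -1.49, -1.36 and -1.28, adjusted p = 0.0108 to 0.0333). The antioxidant enzymes Mgst3 and Prdx5 fell (log2 changes of -0.89 and -0.77, adjusted p = 0.00973 and 0.0285), the 2 called of 30 genes of antioxidant defence (median -0.49).

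**Figure D5:**
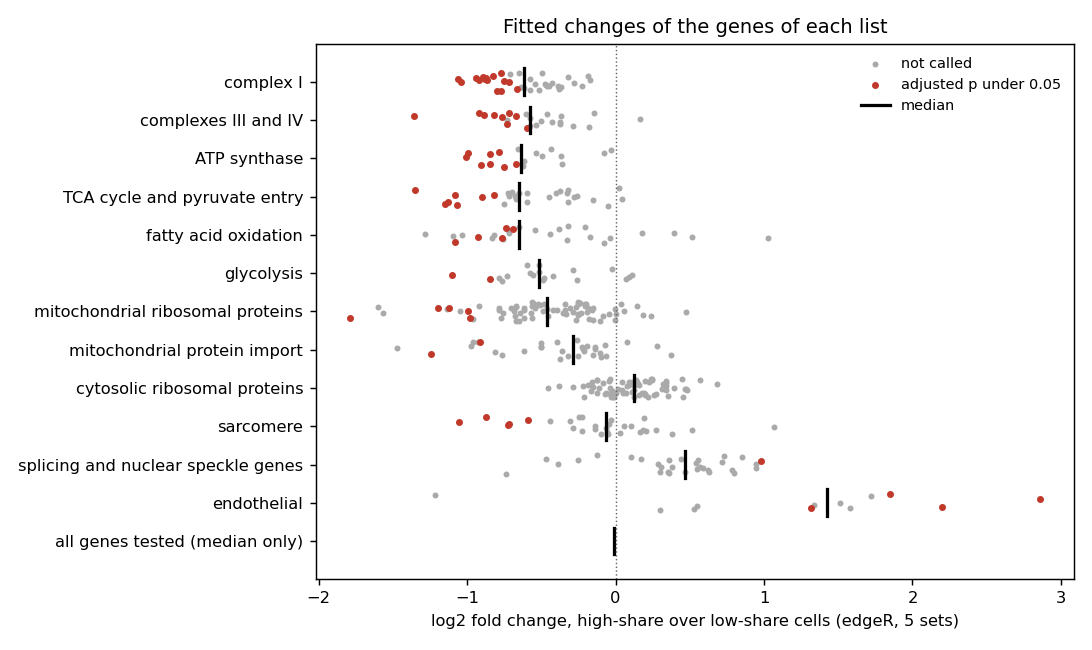
Each point is 1 gene of a list, placed by its edgeR log2 change between high-share and low-share cells over 5 sets, in red where called and grey where not, with a black bar at the list's median. The lists of the respiratory chain, ATP synthase, the tricarboxylic acid cycle and fatty acid oxidation have medians of -0.58 to -0.65, the endothelial list 1.43, and all genes tested -0.01.

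Of the genes higher in high-share cells, Lars2 was the most abundant. It encodes the leucyl-tRNA synthetase of mitochondria (chr9:123366927-123462666) and had 12925, 18639, 6344, 28248 and 8776 CPM in high-share cells, against 4722, 8932, 1032, 3525 and 2676 CPM in low-share cells. Within every set the high-share cells had the larger value, though the ranges overlapped between sets, and the middle bin lay between in all 5. Its log2 change was 1.74 ± 0.25 (adjusted p = 0.00943), opposite in direction to the 53 called members of the mitochondrial lists. Across the cells of a set, Lars2 counts had a rank correlation of 0.26 to 0.55 with mitochondrial counts and of -0.21 to 0.49 with nuclear counts (49 to 77 cells). No single cell gave more than 22.7% of the Lars2 counts of high-share cells in any set. Of 18620 genes in the table with a transcript to search, none, Lars2 included, holds a run of 31 bases identical to mitochondrial DNA. Only exact runs in protein-coding transcripts were searched, so reads placed with mismatches were not covered.

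Several of the other higher genes are known from blood vessels. Of 12 endothelial markers, 11 had a fitted change above 0 (median 1.43) and 4 were called higher. Fabp4, a fatty acid carrier of capillary endothelium, had 233, 2181.8, 1126, 775 and 147 CPM in high-share cells, against 169, 283, 123, 224 and 39.8 CPM in low-share cells. The gap was wide in CD8-depleted 2, CD3e-/- 2 and WT 1 and narrow in CD8-depleted 1 (log2 change 1.85 ± 0.30, adjusted p = 0.0104). Pecam1, Tek and Ly6c1 rose (log2 changes of 2.20, 2.86 and 1.32, adjusted p = 0.0210, 0.0301 and 0.0441). So did Gpihbp1, which anchors lipoprotein lipase on capillaries, and Gng11, Ifitm3 and Tmsb4x, outside the list (2.28, 1.97, 2.19 and 1.55, adjusted p = 0.0108 to 0.0228). Rgs5, a pericyte marker, had 152, 377, 283, 664 and 251 CPM in high-share cells, against 82.1, 87.0, 156, 80.0 and 71.9 CPM in low-share cells (log2 change 1.505 ± 0.30, adjusted p = 0.0228). Uhmk1, Tpm4 and Brd3 rose (log2 changes of 2.51, 2.25 and 1.34, adjusted p = 0.0272, 0.0228 and 0.0428).

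Summed over the 12 markers, endothelial RNA was 557, 3266, 2102, 1618 and 221 CPM in high-share cells, against 289, 597, 275, 536 and 111 CPM in low-share cells. Cells with over 500 CPM in these markers numbered 29 of 100 high-share and 16 of 100 low-share cells, and 66 of all 309. In CD8-depleted set 2 they were 9 of 16 high-share, 9 of 17 middle and 5 of 16 low-share cells. The middle bins summed to 460, 1880, 239, 134 and 1435 CPM in these markers. That was above both other bins in WT 2 and below both in CD3e-/- 2 and WT 1, so endothelial RNA did not rise evenly with the share. In at least 1 set a single cell gave 69.8% of the high-share counts of Fabp4, 79.7% of those of Ifitm3 and 100% of those of Pecam1. The 12 cardiomyocyte markers were all detected in every sum and took 150432 to 208684 CPM in high-share cells and 137852 to 196027 CPM in low-share cells. Macrophage markers summed to 3.60 to 122 CPM in high-share cells and 3.52 to 28.03 CPM in low-share cells, with 3 to 10 and 7 to 9 of the 12 at 0. Lyz2, a macrophage marker, had 0 to 86.3 CPM in high-share cells and 0 to 22.7 CPM in low-share cells (adjusted p = 0.213). Lymphocyte markers summed to at most 31.1 CPM. The 11 markers of pericytes and smooth muscle summed to 271, 689, 464, 1002 and 421 CPM in high-share cells, against 220.2, 235, 358, 334 and 211 CPM in low-share cells, higher in every set. The 14 fibroblast markers summed to 184, 1341, 158, 165 and 36.02 CPM in high-share cells, against 122, 195, 375, 264 and 22.3 CPM in low-share cells, higher in 3 of 5 sets and by far the most in CD8-depleted 2. Of the 10 fibroblast markers tested, none was called and the median log2 change was -0.35, whereas within layers of nuclear depth all 11 tested lay above 0 (median 1.08). The part of pericyte and fibroblast RNA in the result was not tested. When the 66 endothelial-rich cells were left out before the bins were formed, an alternative chosen after seeing the data, 10 genes were called, 1 higher (0.0103% of 9707 tested) and 9 lower (0.0927%). The 1 higher gene was Lars2 (log2 change 1.69), and the 9 lower ones were Ndufv2, Cox5a, Atp5c1, Atp5pb, Ckmt2, Slc25a5, Csrp3, Psmb7 and Suclg1. The complex I median was then -0.42 and all 10 genes were among the 106.

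Among other groups, 26 of 31 genes of splicing and nuclear speckles had a fitted change above 0 (median 0.47), and Rbm25, a splicing factor, was the 1 called. It had 367, 294, 239, 115 and 146 CPM in high-share cells, against 49.5 to 146 CPM in low-share cells (log2 change 0.98 ± 0.19, adjusted p = 0.0228). Srrm2, a scaffold of speckles, averaged 274 ± 123 CPM in high-share cells and 148 ± 86.9 CPM in low-share cells (adjusted p = 0.126). Of 79 cytosolic ribosomal protein genes, 52 lay above 0 (median 0.12) and none was called. Rpsa averaged 1402 ± 320 CPM in high-share cells and 821 ± 252 CPM in low-share cells, and Rps12 136 ± 38.7 and 70.8 ± 10.5 CPM, each higher in all 5 sets (adjusted p = 0.140 and 0.275). Higher in all 5 sets were 30 of the 79 ribosomal protein genes and 12 of the 31 splicing genes, beside 847 of all 10445 genes (8.11%). Lists of immediate early genes, p53 targets and mitochondrial dynamics and mitophagy had no called member, with medians of 0.11, -0.42 and -0.02. Without TMM factors, p53 targets summed to 818, 708, 1104, 1093 and 694 CPM in high-share cells. In low-share cells they summed to 556, 591, 939, 1163 and 688 CPM, higher only in WT 1. Dynamics and mitophagy genes summed to 2709, 2881, 3574, 3662 and 3227 CPM in high-share cells. Their low-share sums were 2571, 2197, 2916, 3469 and 2955 CPM, lower in every set. These sums were not tested.

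Of the 11 genes of the study's panel of hypertrophy and repair, 8 were tested and none was called, while Egfr, Pdgfra and Il1rl1 were too low to test. Nppa, the atrial natriuretic peptide, had 3585, 6887, 6512, 502 and 588 CPM in high-share cells, against 1881, 7087, 4685, 202 and 358 CPM in low-share cells (log2 change 0.45 ± 0.19, adjusted p = 0.408). Its levels lay further apart between conditions than between bins. Low-share cells of CD8-depleted and CD3e-/- mice had 1881 to 7087 CPM, and high-share cells of WT mice had 502 and 588 CPM. The median share was 88.9%, 86.3% and 84.8% in those low-share cells, against 89.4% and 90.1% in the high-share cells of WT mice. Myh7, the fetal myosin heavy chain, had 1547, 2815 and 1442 CPM in those low-share cells, against 241 and 735 CPM in the high-share cells of WT mice. These comparisons are not matched for share, involve 3 against 2 sets and were not tested. Between the bins, the log2 changes of Myh7, Nppb and Osmr were 0.27 ± 0.19, -0.45 ± 0.19 and 2.50 ± 1.02 (adjusted p = 0.721, 0.405 and 0.384). Over the 22 alternatives, 3 genes of the panel passed as higher in some: Myh6 in 7, among them DESeq2 and limma-voom, and Nppa and Osmr in 2 each.

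Whether the change between bins differed between T cell deficient sets (CD8-depleted 1 and 2, CD3e-/- 2) and WT sets was tested as an interaction. None of 10445 genes was called (0%), the smallest adjusted p in edgeR was 0.418, and 411 genes had an unadjusted p under 0.05. limma-voom also called none, with 666 such genes. The genes with the smallest p whose change was larger in T cell deficient sets were Tbccd1, Atp6ap1, Nxf1, Cd81 and Hba-a1, and those with a smaller change were Fbp2, Gfm1, Eftud2, Fam53a and Gstk1. Atp6ap1, a subunit of the vacuolar proton pump, differed by 3.15 ± 0.63 on the log2 scale and Fbp2, the muscle fructose bisphosphatase, by -2.89 ± 0.62 (adjusted p = 0.418 and 0.488). Without WT set 1, 7 genes were called, and without CD8-depleted set 1 there was 1, Hba-a1, a haemoglobin chain. The per-set median change of complex I lay below 0 in all 5 sets, at -0.38, -0.60, -0.53, -0.28 and -0.12 on a log2(CPM + 1) scale without TMM factors.

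Nuclear depth moved with the share, and it was altered in 2 alternatives. With every cell thinned to 20000 nuclear counts, 109 of 5888 genes were called, 85 lower and 24 higher, 87 of them among the 106, and the complex I median was -0.54. Thinning kept the same bins and drew at random from the same cells. It thus could not show whether a cell's depth or the capture of its RNA plays a part. When the bins were formed within 2 layers of nuclear depth, so that low-share cells had 1.02 to 1.23 times, and in CD3e-/- 2 2.13 times, the median nuclear counts of high-share cells, the sums tested were still 2.05, 1.37, 2.72, 1.72 and 1.84 times as high in low-share cells. The gap in share also narrowed in part: the median share of high-share cells was 77.96% in WT 1 and 94.96% in CD3e-/- 2, against 89.4% and 96.8% in the main comparison, and in WT 1 it lay below that of the middle bin (83.5%). In this setting 25 of 10866 genes were called. Of these, 5 were lower (0.046%), namely Atp5c1, Slc25a5, Iars, Apool and Ppid, and 20 were higher (0.184%), among them Lars2, Fabp4, Pecam1, Ifitm3 and Rgs5. The medians of complex I, complexes III and IV and ATP synthase were then -0.28, -0.29 and -0.28, and all 106 genes had the same direction of fitted change as in the main comparison. The calls also rested on single sets. Without CD3e-/- set 2, which had the widest gap in nuclear depth, no gene was called in edgeR (793 at an unadjusted p under 0.05, smallest adjusted p = 0.0577), and without CD8-depleted set 1 there were 5, Slc25a5 lower and Lars2, Ifitm3, Fabp4 and Tmsb4x higher. Without WT set 2 there were 31. With the 3 high-share and 3 low-share cells of CD3e-/- set 1 added as another set, no gene was called either (563 at an unadjusted p under 0.05). The complex I medians in these fits were -0.59 without CD3e-/- set 2, -0.61 without CD8-depleted set 1 and -0.29 with CD3e-/- set 1 added.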

How the data were processed

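Smart-seq2 libraries of single cardiomyocytes were analysed as whole-number read counts per gene, deposited by the authors as 1 table of the whole series. Per the labels' processing notes, fastp 0.21.0, STAR 2.7.5c, featureCounts and mm10 were used, while the study's methods describe another aligner and build, so which of these made the table cannot be told. No doublet caller was run, as cells were picked singly. Kept cells had at least 3000 genes with a count above 0. The high and low bins each held the whole number of cells nearest below 1 part in 3 of the set, and the middle bin the rest. Members and gene lists were chosen with earlier results of these data known.

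Nuclear counts were summed per bin and set (1127535 to 15318313 per sum), filtered by filterByExpr, scaled by TMM and tested with edgeR 4.0.16 (glmQLFit, glmQLFTest, R 4.3.3) with the set as a block, Benjamini-Hochberg threshold 0.05. High-share and low-share cells of a set come from the same set by construction, which is the pairing. Named genes were the study's panel, the 12 largest changes per direction among called genes with at least 20 CPM and 1 direction in all 5 sets, up to 4 members per list by p, and 5 genes per direction for the interaction. Per-set ratios are log2(CPM + 1). Other calls named beside small counts were chosen after their values were seen. The alternatives were DESeq2 1.42.0, limma-voom 3.58.1, other scalings, filters, bins and cells, thinning, and leaving out each set. The gene fit was tested on simulated data with known folds. These data were drawn with no difference between sets, so how the block handles such differences was not tested. Counting error and the spread between sets limit precision.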

Additional observations from a re-analysis of the deposited data

Results flagged for a closer look

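Of 111 results checked over the 5 sets, 7 had a set apart from the other 4, and chance gives about 1 in 20. The ratios are high-share over low-share, on the log2(CPM + 1) scale for nuclear genes. Sdhb, a subunit of complex II, was at -0.77 in CD3e-/- set 2, with the other sets between -0.56 and -0.53. Cryab, a small heat shock protein, was at -0.996 in the same set, with the others between -0.48 and -0.27. Ppara, a regulator of fatty acid oxidation, was at -1.53 in WT set 1, with the others between -0.35 and 0.11. Acy3 was at -0.19 in WT set 2, with the others between -1.93 and -1.44. The median of the mitochondrial RNA processing genes was at 0.30 in CD8-depleted set 2, with the others between -0.50 and -0.31.

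Sets apart also appeared in the make-up of mitochondrial RNA. The log2 ratio of the mt-Nd5 share was 0.28 in WT set 1, with the others between -0.06 and 0.0046, and that of the mt-Cytb share was -0.10 in the same set, with the others between 0.01 and 0.05. For mt-Nd5 every T cell deficient set lay below 0 and both WT sets above 0, with means of -0.03 and 0.14 and a difference of -0.18, which was not tested.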

How the results depend on the processing

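Against 106 calls, 387 genes were called with DESeq2, 225 with limma-voom, 323 without a filter on low counts, 62 with library sizes alone, 56 with each set split at its median share, 53 with at least 4000 genes per cell, 25 within layers of nuclear depth, 10 without endothelial-rich cells (chosen after seeing the data) and 0 with CD3e-/- set 1 added. With no replicate block, that is without the pairing of bins by set, 0 of 8640 genes were called in edgeR (735 at an unadjusted p under 0.05). Leaving out 1 set gave 0 to 95 calls, with 0 to 7 for the difference between T cell deficient and WT sets and 0 to 3 mitochondrial genes moving 1 way in the composition. Over 22 alternatives, 67 called genes named in the text gave 1473 fits, 825 past the threshold, 648 not and 0 in the other direction. Uncalled named genes passed in 26 of 328 fits and changed sign in 5: Ppargc1a to 0.0025 with cells weighted alike and 0.0074 with CD3e-/- set 1 added, Myh7 to -0.028 with no replicate block and -0.23 with at least 4000 genes, and Nppa to -0.33 with at least 4000 genes. The sarcomere median turned to 0.16 with library sizes alone, 0.14 with cells weighted alike, 0.0056 with sets split at the median, 0.13 without the highest cell of each gene, 0.073 with CD3e-/- set 1 added and 0.021 without endothelial-rich cells. The mitochondrial DNA maintenance median turned to 0.078 within layers of nuclear depth. The energy regulator median turned to 0.064 with library sizes alone, 0.073 with cells weighted alike, 0.019 with at least 4000 genes and 0.034 without endothelial-rich cells. The medians of complex I, complexes III and IV and ATP synthase stayed below 0 in all 22 alternatives, at -0.68 to -0.28, -0.64 to -0.29 and -0.72 to -0.28. The cause of these shifts was not tested. With 5 sets and 4 residual degrees of freedom, changes of low genes were hard to resolve, although some, such as Iars and Mrps22, were called.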

Other observations

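Other gene groups of the heart muscle showed no called member in the main comparison. Of 23 genes of calcium cycling and ion channels, 17 had a fitted change above 0, with a median of 0.07. Of 34 interferon and antigen presentation genes, 17 lay above and 17 below 0, and of 18 circadian clock genes 9 lay on each side, with medians of -0.01 and -0.07. The sets differed for the interferon list, with medians of -0.06, 1.09, 1.14, 0.56 and -0.16 on the log2(CPM + 1) scale without TMM factors. In this list DESeq2 called 5 higher and 1 lower, and limma-voom 3 higher. Of 7 atrial cardiomyocyte genes, all lay above 0 (median 1.87) with none called, and 1 or more of the 8 in the table were at 0 in every sum.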
